A study of Mus musculus with 12 samples.

Results

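The genes described here encode the proteins of the mitochondrial ribosome, named Mrpl for the large subunit and Mrps for the small subunit. They were taken by symbol alone, as every symbol that starts with Mrpl or Mrps followed by a digit and does not carry the mark of a pseudogene. This gave 77 of the 43279 genes in the table, 48 named for the large and 29 named for the small subunit. The libraries are bulk RNA-seq of hematopoietic stem cells, sorted from femur, tibia and ilium as lineage-negative KIT+ SCA1+ FLT3- CD48- cells, with 1000 cells from each mouse. The groups were naive adult wild-type C57BL/6 mice (WT, 6 libraries) and naive adult Osmr-/- mice (5 libraries), with no treatment and each library from a different mouse. Osmr encodes the receptor chain for oncostatin M, and no cell type is named for the knock-out, so loss in the stem cells and in their niche cannot be told apart. The labels do not give the genetic background of the Osmr-/- mice, their exact age or whether littermates were used, and the Osmr-/- sample labelled 4 was not analysed here.

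The mitochondrial ribosome translates the few messenger RNAs of the mitochondrial genome, which code for membrane subunits of the respiratory chain and of ATP synthase. Its ribosomal RNAs come from the mitochondrial genome, while all of its proteins are coded in the nucleus, made in the cytosol and imported. Besides homologues of bacterial ribosomal proteins it holds many proteins found only in mitochondria. Hematopoietic stem cells at rest are known for low respiratory activity, and they turn to mitochondrial respiration when they differentiate. A symbol does not always tell the place of a protein: the products of Mrps30 and Mrps18a sit in the large subunit, and that of Mrps36 belongs to the oxoglutarate dehydrogenase complex.

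Promoters of 4 members are shown because the values below turn on these genes: Mrps30 was the member with the lowest p, Mrpl33 had the highest fold change, and Mrps18a and Mrps18c are paralogues with fold changes of opposite sign. Each run is the 300 bases from 250 before to 50 after the RefSeq start, on the strand of the gene (GRCm38.p6). Capitals mark copies of the letters of the ETS (CCGGAAG), YY1 (AAGATGGC) and NRF1 (GCGCATGC) motifs on either strand, 3 factors known for promoters of mitochondrial protein genes.
Mrps30: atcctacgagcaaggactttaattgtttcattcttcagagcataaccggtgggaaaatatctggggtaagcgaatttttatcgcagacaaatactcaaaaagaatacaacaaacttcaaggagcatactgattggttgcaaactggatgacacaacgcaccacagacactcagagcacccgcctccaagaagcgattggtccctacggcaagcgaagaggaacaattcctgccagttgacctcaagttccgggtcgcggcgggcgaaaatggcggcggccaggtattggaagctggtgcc
Mrpl33: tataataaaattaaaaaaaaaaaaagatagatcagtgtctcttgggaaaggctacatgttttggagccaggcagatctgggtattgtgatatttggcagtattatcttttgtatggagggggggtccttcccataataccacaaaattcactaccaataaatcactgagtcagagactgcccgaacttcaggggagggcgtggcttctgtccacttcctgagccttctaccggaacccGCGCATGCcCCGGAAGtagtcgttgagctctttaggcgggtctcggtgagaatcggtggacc
Mrps18a: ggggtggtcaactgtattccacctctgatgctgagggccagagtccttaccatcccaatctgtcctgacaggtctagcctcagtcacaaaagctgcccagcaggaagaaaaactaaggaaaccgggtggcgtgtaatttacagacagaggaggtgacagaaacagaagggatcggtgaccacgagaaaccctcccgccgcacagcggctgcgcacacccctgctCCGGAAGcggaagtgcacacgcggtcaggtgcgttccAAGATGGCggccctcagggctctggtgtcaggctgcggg
Mrps18c: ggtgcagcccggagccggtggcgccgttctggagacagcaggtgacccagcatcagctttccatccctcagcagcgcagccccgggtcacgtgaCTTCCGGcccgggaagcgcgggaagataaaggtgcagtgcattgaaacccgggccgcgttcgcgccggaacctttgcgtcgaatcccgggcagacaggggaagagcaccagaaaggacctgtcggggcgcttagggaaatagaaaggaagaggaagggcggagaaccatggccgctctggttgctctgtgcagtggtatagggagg
The Mrps30 window lies at chr13:118387203-118387502 on the minus strand and holds none of the 3 motifs. The Mrpl33 window, at chr5:31613701-31614000 on the plus strand, holds an NRF1 copy whose first base is at -12 and an ETS copy at -3, counted from the start base as 1. The Mrps18a window, at chr17:46110754-46111053 on the plus strand, holds an ETS copy at -26 and a YY1 copy at 12. The Mrps18c window, at chr5:100798509-100798808 on the plus strand, holds a single ETS copy at -156, read on the other strand.

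Of the 77 members, 68 had a promoter in the RefSeq table, and 36 of these 68 held at least 1 of the 3 motifs. ETS letters were in 35.3% of the members' promoters and in 19.2% of the 9174 promoters of tested genes. YY1 letters were in 17.6% against 4.94%, and NRF1 letters in 11.8% against 5.74%. The letters of 5 other motifs were searched on both strands in the same windows, and none of the 8 strings contains another. The CCAAT box (CCAAT) was in 39.7% against 39.1%, the GC box (GGGCGG) in 34 of 68 against 64.2% and the E-box (CACGTG) in 7.35% against 10.6%. The TATA box (TATAAA) was in 5.88% against 6.69% and the CRE (TGACGTCA) in 2.94% against 3.40%. These shares describe letters in a window and do not show that a factor binds there. At an unadjusted p under 0.05 by limma, 8 members (10.5%) were higher and 15 (19.7%) lower in Osmr-/-, beside 7.5% and 10.5% of all tested genes. None of these members passed the adjusted threshold in that fit. ETS letters were in Mrpl33, Mrpl52, Mrps18c, Mrps21 and Mrps33 among those higher and in Mrps18a, Mrps23 and Mrps27 among those lower. YY1 letters were in Mrpl42 among those higher and in Mrpl37, Mrps11, Mrps18a and Mrps27 among those lower. NRF1 letters were in Mrpl33 among those higher and in no member among those lower. A link between motif and direction was not tested.

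The WT libraries held 9.89 to 22.1 M reads and the Osmr-/- libraries 9.50 to 11.2 M reads. All values are normalised counts, which are the read counts of a library divided by its DESeq2 size factor. Osmr itself had only 13 reads over the 6 WT and 4 reads over the 5 Osmr-/- libraries, and single libraries of both genotypes held none, so at this depth the gene does not check the labels. All 12 stem cell markers looked at had reads in every library, and of 6 genes for proteins gated out in the sort Cd3e, Cd5 and Ly6g were at 0 in most. The other 3, Flt3, Cd48 and Itgam, had reads in every library, at means of 504.3, 637 and 22.2 in WT and 389, 853 and 58.0 in Osmr-/-, and the summed signal of the 6 ran from 821 to 1781 in WT and from 1112 to 1673 in Osmr-/-. Libraries numbered 1 to 3 in the labels (3 WT, 3 Osmr-/-) stood apart from those numbered 4 to 6 (3 WT, 2 Osmr-/-) on the second principal component, which held 16.5% of the variance. The labels name no batch, so these sets of numbers were known only from earlier results of the same data, and values within each set are given where members are described in most detail or where the sign differs between the sets. The summed signal of 12 erythroid marker genes ran from 18932 to 61596 in WT and from 12801 to 19376 in Osmr-/-, with 10 of 11 tested genes below 0 in log2 fold change and Klf1, Rhd, Hba-a2 and Alas2 among those at 0 in at least 1 library. That of 8 granulocyte genes ran from 3412 to 5510 in WT and from 4689 to 29061 in Osmr-/-, with 5 of 6 tested genes above 0, Elane and Ngp at 0 in some libraries and Ctsg in every library. The part of these differences in the results below was not tested, and in bulk samples fewer cells of a type and less RNA per cell cannot be told apart.

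The first question was whether the mitoribosomal genes differ between the genotypes. Of the 77 members, 76 passed the filter of at least 10 normalised counts in at least 5 libraries, 47 large and 29 small. None was called at an adjusted p under 0.05 by limma, higher or lower, where 0.00749% of the 13358 tested genes were called higher and 0.015% lower. The lowest adjusted p among the members were 0.0650 for Mrps30 and 0.0824 for Mrpl2. At an unadjusted p under 0.05, 8 members (10.5%) were higher and 15 (19.7%) lower in Osmr-/-, beside 7.5% and 10.5% of all tested genes. The 8 higher members were 4 large (Mrpl33, Mrpl42, Mrpl47, Mrpl52) and 4 small (Mrps14, Mrps18c, Mrps21, Mrps33). The 15 lower members were 7 large (Mrpl2, Mrpl4, Mrpl12, Mrpl28, Mrpl37, Mrpl44, Mrpl45) and 8 small (Mrps5, Mrps9, Mrps11, Mrps15, Mrps18a, Mrps23, Mrps27, Mrps30). Of these 23 members, 22 had the same sign of log2 fold change within numbers 1 to 3 and within numbers 4 to 6, the exception being Mrpl37, and 15 of all 76 had opposite signs. The counts depended on single libraries. The higher count was 15 without WT 3 and 4 without WT 4, WT 5, Osmr-/- 1 or Osmr-/- 2, each left out in turn. The lower count was 8 without Osmr-/- 6. The shares of all tested genes in these fits are not given here, so the changes are not shown to be particular to the members. Values of the genotypes did not overlap for 2 members, Mrps30 and Mrpl2, both lower, and for none that were higher, while 1.42% of all tested genes were lower and 1.09% higher without overlap.

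Other fits called a few members. The authors' deposited table gave adjusted p-values under 0.05 for Mrps30, with a log2 fold change of -1.15 (adjusted p = 0.000182), for Mrpl2 at -1.13 (0.00409) and for Mrpl47 at 0.60 (0.0448), where that table called 2.79% of 13802 genes lower and 1.67% higher. DESeq2 on the recovered reads called the same 3 genes, with 2.83% of its 15526 genes lower and 1.53% higher. edgeR called none, where 0.00749% of all tested genes were called in each direction, and gave 7 members higher and 11 lower at an unadjusted p under 0.05, beside 6.77% and 8.52% of tested genes. With the sets of label numbers as a covariate, limma called Mrps30 (adjusted p = 0.0329) and Mrpl2 (0.0368) lower and Mrpl33 (0.0329) and Mrpl42 (0.0433) higher, where it called 1.53% of all tested genes lower and 0.996% higher. With this covariate 10 members were higher and 24 lower at an unadjusted p under 0.05, beside 9.65% and 12.4% of all tested genes. With the trends of all genes with total exon length and GC content removed, limma called no member. Of 12558 genes it called 0.0159% higher and 0.00796% lower. In that fit 16 members were higher and 5 lower at an unadjusted p under 0.05, beside 9.95% and 6.18% of its genes. Without WT 6, limma called Mrps30 (adjusted p = 0.0403) and Mrpl2 (0.0428), where it called 92 of the 13358 tested genes lower and 30 higher. No member was called when any other single library was left out.

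Large and small subunit genes were then contrasted. The median log2 fold change (Osmr-/- over WT) was -0.11 over the 76 members, with 32 above and 44 below 0, beside a median of -0.05 and 46.8% above 0 over all tested genes. The large subunit genes had a median of -0.08, with 20 above and 27 below 0. This median turned to 0.09 when trends with total exon length and GC content were removed and to 0.02 without Osmr-/- 6. The small subunit genes had a median of -0.30, with 12 above and 17 below 0, and of -0.09 with those trends removed. The difference of the medians, large minus small, was 0.22, and was 0.13 without Osmr-/- 3 and 0.32 without WT 6. Counting Mrps30 and Mrps18a with the large subunit and leaving Mrps36 out gave medians of -0.10 and -0.30. Within the libraries numbered 1 to 3 the medians were -0.10 (large) and -0.50 (small), and within those numbered 4 to 6 they were -0.04 and -0.11.

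In each library the mean log2(normalised count + 1) was higher for the large than for the small subunit genes. The large subunit mean was 10.8 ± 0.319 in WT (SD, n = 6) and 10.6 ± 0.350 in Osmr-/- (SD, n = 5), and the small subunit mean was 10.3 ± 0.284 and 10.1 ± 0.340. The genotypes overlapped in both, and Osmr-/- 6 was the lowest library in both. The large minus small difference within a library was 0.375 at the lowest, 0.499 at the median and 0.562 at the highest in WT, with a mean of 0.49 ± 0.070. In Osmr-/- it was 0.623, 0.553, 0.654, 0.484 and 0.543 in libraries 1, 2, 3, 5 and 6, with a mean of 0.57 ± 0.068. Osmr-/- 1 and 3 lay above all WT libraries, and Osmr-/- 2, 5 and 6 lay within the WT range. From library to library the means of the 2 subunits moved together. Their difference spread less (SD 0.069 within genotypes) than either mean (0.333 for the large and 0.310 for the small subunit). No other sets of genes were compared in this way, so the pattern is not shown to be particular to the subunits.

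**Figure D1:**
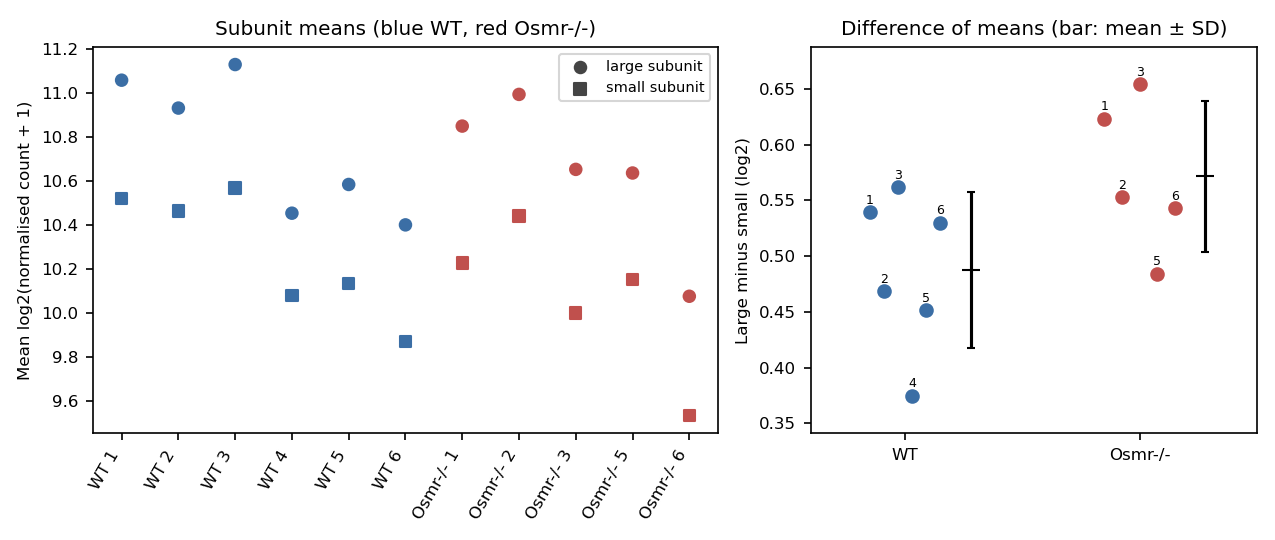
Left, mean log2(normalised count + 1) of the 47 large (circles) and 29 small (squares) subunit genes in each library, WT in blue and Osmr-/- in red; right, the large minus small difference by genotype with the mean and SD, and the label number beside each point. Large and small subunit means move together across libraries, and the differences of the genotypes overlap, at 0.375 to 0.562 in WT and 0.484 to 0.654 in Osmr-/-.

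The members took 1.395% ± 0.184 of the reads in WT (SD, n = 6) and 1.46% ± 0.190 in Osmr-/- (SD, n = 5), and the ranges overlapped. The share split more by label number than by genotype: it was 1.44 to 1.70% in the 6 libraries numbered 1 to 3 and 1.19 to 1.4% in the 5 numbered 4 to 6, with no overlap. Malat1, a long nuclear RNA, went the other way, with a mean of 59217 normalised counts in the 6 libraries and 186746 in the 5. Osmr-/- 6 held the lowest value of the 11 libraries for 34 of the 76 tested members and WT 4 for 17. The highest value was in WT 1 for 25 members, in Osmr-/- 2 for 25 and in WT 3 for 12.

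Among the large subunit genes, Mrpl2 and Mrpl3 encode homologues of the bacterial proteins beside the peptidyl transferase centre, where peptide bonds are made. Mrpl2 was at 535, 914 and 1173 (lowest, median, highest) in WT and at 441, 439, 468, 344 and 173 in Osmr-/- libraries 1, 2, 3, 5 and 6. All 5 Osmr-/- values lay below the lowest WT value. The means were 879 ± 227 (SD, n = 6) and 373 ± 121 (SD, n = 5), a log2 fold change of -1.27 ± 0.301 (SE, adjusted p = 0.0824) that was -1.02 within numbers 1 to 3 and -1.71 within numbers 4 to 6. Mrpl3 was at 942 ± 174 in WT and 719 ± 280.3 in Osmr-/-, with overlapping values (log2 fold change -0.47, adjusted p = 0.394).

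The stalk of the large subunit, which recruits translation factors, is built from the products of Mrpl10, Mrpl11 and Mrpl12. Mrpl12 was at 1703, 2294 and 2885 in WT and at 1674, 1797, 1519.5, 2293 and 665 in Osmr-/-. Osmr-/- 1, 3 and 6 were below all WT libraries (log2 fold change -0.63, adjusted p = 0.258). Mrpl10, which anchors Mrpl12, was at 457 ± 69.3 in WT and 486 ± 45.6 in Osmr-/-, a log2 fold change of 0.10 ± 0.220. Mrpl11, at the stalk base, was at 1420.4 ± 319 and 1089 ± 335 (log2 fold change -0.42, adjusted p = 0.413). The ranges of all 3 stalk genes overlapped between the genotypes.

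Mrpl23, Mrpl24 and Mrpl45 encode proteins around the exit of the peptide tunnel, and Mrpl45 also ties the ribosome to the inner membrane. Mrpl45 was at 850.1, 1476 and 1847 in WT and at 1061, 821, 833, 1166 and 476 in Osmr-/-, where 3 libraries were below all WT libraries (log2 fold change -0.73 ± 0.282, adjusted p = 0.204). Mrpl23 was at 3829 ± 1132 in WT and 4778 ± 1181 in Osmr-/- (0.33, adjusted p = 0.475). Mrpl24 was at 2486 ± 640.3 and 2319 ± 667 (-0.11, adjusted p = 0.860; 0.20 with length and GC trends removed). Values of each of the 3 genes overlapped between genotypes.

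The large subunit genes with the highest log2 fold changes were Mrpl33, Mrpl42 and Mrpl52. Mrpl33, the homologue of a small bacterial ribosomal protein, was at 2643, 5009.9 and 9591 in WT and at 12026, 14606, 13702, 6256 and 6299.9 in Osmr-/-. Osmr-/- libraries 1 to 3 were above all WT libraries, and 5 and 6 were below WT 3. The means were 5093 ± 2527 and 10578 ± 4033, a log2 fold change of 1.10 ± 0.344 (adjusted p = 0.143) that was 1.02 within numbers 1 to 3 and 0.95 within numbers 4 to 6. Part of its exon sequence is shared on the same strand with the annotated gene Gm43809, so reads there could be assigned to either.

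Mrpl42, a protein found only in mitochondrial ribosomes, was at 5829, 9683 and 16722 in WT and at 18928, 22830.0, 19985, 13887 and 11918 in Osmr-/-. As for Mrpl33, Osmr-/- 1 to 3 were above all WT libraries and WT 3 was above the other Osmr-/- libraries. Its log2 fold change was 0.87 ± 0.273 (adjusted p = 0.142), 0.82 within numbers 1 to 3 and 0.79 within numbers 4 to 6. Mrpl52 was at 844, 1184 and 3257 in WT and at 2935, 4016, 3252, 1559.7 and 1195 in Osmr-/- (0.83, adjusted p = 0.267), and the highest WT value was again that of WT 3. Mrpl47, a homologue of a bacterial protein at the tunnel exit, was at 1013, 1416 and 1822 in WT and at 2205, 2566, 2478, 1775 and 1992 in Osmr-/-. All Osmr-/- libraries but number 5 were above all WT libraries (log2 fold change 0.64 ± 0.205, adjusted p = 0.148). Mrpl1, whose bacterial homologue forms the other stalk, was at 1602 ± 701 in WT and 2279 ± 498 in Osmr-/- (0.60, adjusted p = 0.296), with 0.15 within numbers 1 to 3 and 0.99 within numbers 4 to 6.

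Mrpl37 had the lowest log2 fold change of all members. It was at 281, 505 and 844 in WT and at 145, 57.9, 52.8, 583 and 348 in Osmr-/-, so that Osmr-/- 1 to 3 were below all WT libraries and Osmr-/- 5 and 6 were within the WT range. The log2 fold change was -1.69 ± 0.557 (adjusted p = 0.152), but -3.003 within numbers 1 to 3 and 0.13 within numbers 4 to 6, so the difference did not hold within both sets. Mrpl28 was at 1851, 3230.4 and 4605 in WT and at 2635, 2241, 1298, 1792 and 579 in Osmr-/-, where 3 libraries were below all WT libraries (-1.06 ± 0.346, adjusted p = 0.149). Mrpl44, whose product resembles a ribonuclease and is mutated in human mitochondrial disease, was at 1160.1 ± 398 in WT and 672 ± 372 in Osmr-/- (-0.93, adjusted p = 0.238). Mrpl19 (712 ± 180.2 and 663 ± 126), Mrpl34 (2828 ± 802 and 3236 ± 929.6) and Mrpl41 (3013 ± 542 and 3146 ± 747) had log2 fold changes of -0.08, 0.18 and 0.05. That of Mrpl19 was -0.39 within numbers 1 to 3 and 0.23 within numbers 4 to 6, and that of Mrpl41 was -0.063 and 0.17. The sign of Mrpl19 turned with length and GC trends removed and that of Mrpl41 under quantile scaling.

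Among the genes named for the small subunit, Mrps30 had the lowest p of all members. It lies at chr13:118378381-118387252 (GRCm38), on the minus strand, and its product is placed in the large subunit. It was at 671, 874 and 1226 in WT and at 285, 552, 334, 369.6 and 448 in Osmr-/-. All 5 Osmr-/- values were below all WT values. The means were 928 ± 209 (SD, n = 6) and 398 ± 105 (SD, n = 5), 2.34-fold lower in Osmr-/- on the log2(normalised count + 1) scale, a log2 fold change of -1.23 ± 0.247 (adjusted p = 0.0650). The log2 fold change was -1.37 within numbers 1 to 3 and -1.06 within numbers 4 to 6. Its first exon overlaps B430218F22Rik on the other strand, which was at 108 ± 72.6 in WT and 34.6 ± 27.9 in Osmr-/- (adjusted p = 0.279). Whether the counting used strand is not stated in the sources at hand, and without strand the reads of the 2 genes in the overlap cannot be told apart. Nnt, 948 kb away on the same chromosome, is 1 of the 3 genes of the whole table that limma called and was higher in Osmr-/- (270 ± 56.1 against 952 ± 308, adjusted p = 0.0373). C57BL/6J mice carry a well-known deletion in Nnt, and a difference in strain background around it cannot be told apart from the genotype for genes of this region.

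**Figure D2:**
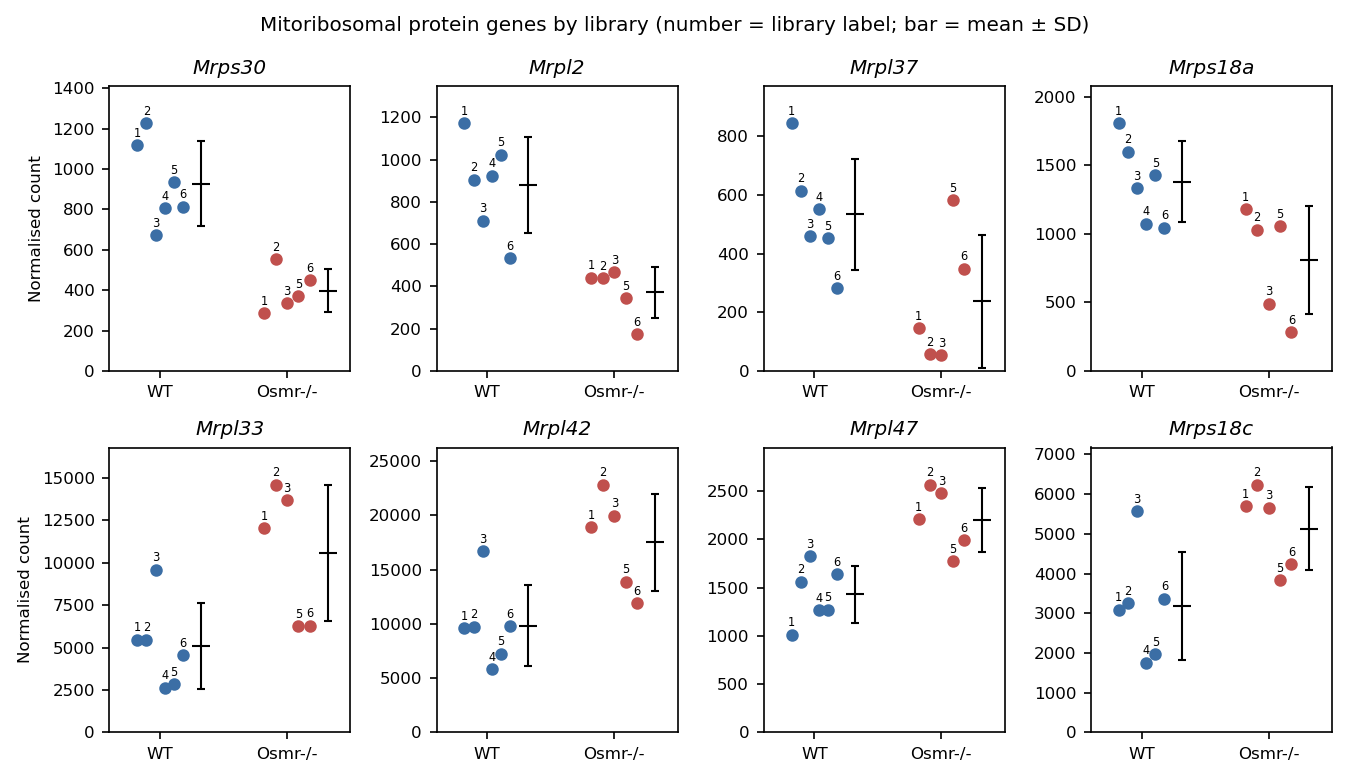
Normalised counts of 8 members in each library, WT in blue and Osmr-/- in red, with the label number above each point and the mean and SD beside each group; each panel starts at 0. Mrps30 and Mrpl2 do not overlap between genotypes, Mrpl37 is low only in Osmr-/- 1 to 3, and WT 3 reaches into the Osmr-/- range for Mrpl33, Mrpl42 and Mrps18c.

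Mrps12 encodes the protein of the decoding centre, where codon and anticodon are matched. It was at 1684, 2216 and 2869 in WT and at 1121, 2128, 2044, 1923 and 1145 in Osmr-/-, with Osmr-/- 1 and 6 below all WT libraries (log2 fold change -0.49 ± 0.235, adjusted p = 0.283). Mrps5 and Mrps9, homologues of bacterial small subunit proteins, were at 316 ± 99.9 and 955 ± 273 in WT and at 175 ± 77.7 and 542 ± 180.0 in Osmr-/-. Their log2 fold changes were -0.91 (adjusted p = 0.226) and -0.83 (adjusted p = 0.173), and their ranges overlapped. Mrps15 was at 2268 ± 356 and 1598 ± 345 (-0.52, adjusted p = 0.224). Mrps27, a pentatricopeptide repeat protein of the class that binds RNA, was at 120.0, 218 and 378 in WT and at 85.0, 40.2, 333, 124 and 56.6 in Osmr-/-. Only Osmr-/- 3 was high among the Osmr-/- libraries, and the log2 fold change of -1.18 ± 0.519 (adjusted p = 0.257) was -1.62 without it.

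The small subunit had 4 genes that were higher at an unadjusted p under 0.05, and Mrps18c among them is given with its paralogues below. Mrps14 was at 8895 ± 3052 in WT and 13051 ± 2484 in Osmr-/- (log2 fold change 0.60, adjusted p = 0.234). Mrps33 was at 1961 ± 855 and 3068 ± 825 (0.71, adjusted p = 0.221), and Mrps21 at 2303 ± 962 and 3918 ± 1724 (0.73, adjusted p = 0.269). For Mrps21, Osmr-/- 1 to 3 were above all WT libraries, while for Mrps14 and Mrps33 only Osmr-/- 2 was. Mrps36, the oxoglutarate dehydrogenase protein, was at 386, 625.2 and 1246 in WT and at 1167, 1480.5, 1307, 1002 and 449.9 in Osmr-/- (0.68, adjusted p = 0.321), with overlapping values. Mrps16 and Mrps22, both mutated in human mitochondrial disease, were at 2766 ± 597 and 966 ± 593 in WT and at 3532 ± 563 and 935 ± 329 in Osmr-/-. Their log2 fold changes were 0.36 (adjusted p = 0.356) and 0.15 (adjusted p = 0.892), the latter -0.05 by edgeR and DESeq2. For Mrps22 the sign differed between the sets, with -0.61 within numbers 1 to 3 and 0.84 within numbers 4 to 6. Mrps28 was at 2658 ± 465 and 3013 ± 767 (0.16, with 0.26 and -0.046 within the sets), and Mrps35 at 911 ± 263 and 783 ± 365 (-0.29).

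Mrps18a, Mrps18b and Mrps18c are 3 paralogues that descend from a single bacterial small subunit protein. The product of Mrps18a is found in the large subunit and those of Mrps18b and Mrps18c in the small subunit. Mrps18a was at 1047, 1379 and 1808 in WT and at 1181, 1031, 491, 1055 and 285 in Osmr-/-, with 3 Osmr-/- libraries below all WT (log2 fold change -0.93 ± 0.342, adjusted p = 0.184). Mrps18c was at 1758, 3174 and 5571 in WT and at 5697, 6236, 5661, 3836 and 4231 in Osmr-/-, with 3 Osmr-/- libraries above all WT (0.77 ± 0.277, adjusted p = 0.177). Mrps18b was at 491 ± 238 in WT and 356 ± 254 in Osmr-/- (-0.59, adjusted p = 0.510). The signs were the same within numbers 1 to 3 and within 4 to 6, at -0.89 and -1.09 for Mrps18a, 0.61 and 0.83 for Mrps18c, and -0.80 and -0.57 for Mrps18b. The ratio of Mrps18c to Mrps18a normalised counts was 1.38 to 4.18 in WT and 3.64 to 14.8 in Osmr-/-. Only WT 3 (4.18) was above the lowest Osmr-/- library, number 5 (3.64). The 2 genes were looked at as a ratio after their values were seen, so it carries no test. Mrps18c shares exon sequence on the same strand with Gm43511, whose reads could be assigned to either gene.

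**Figure D3:**
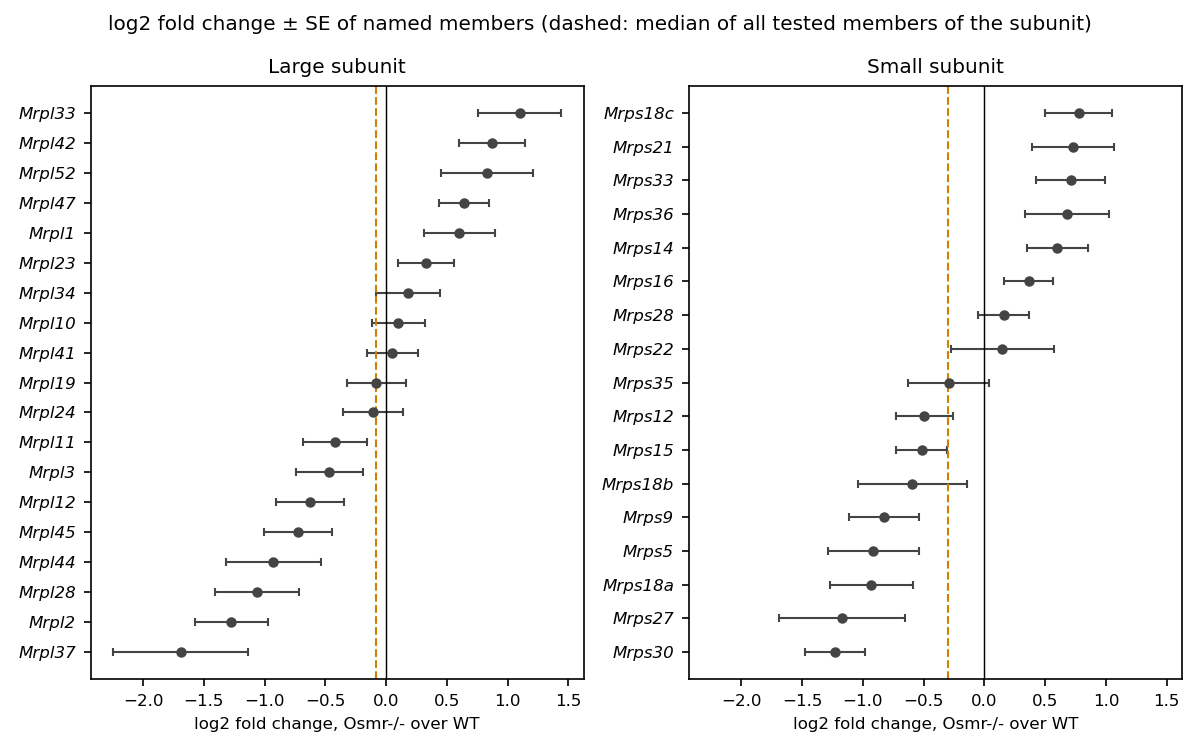
log2 fold change (Osmr-/- over WT) with its standard error for the 36 members named in the text, large subunit left and small subunit right, sorted by value; the dashed line is the median of all tested members of that subunit. Both subunits hold genes on either side of 0, from -1.69 for Mrpl37 to 1.10 for Mrpl33 and from -1.23 for Mrps30 to 0.77 for Mrps18c.

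The other 40 tested members had log2 fold changes between -0.77 (Mrps11) and 0.46 (Mrpl50) and a lowest adjusted p of 0.247. Of the 28 large subunit genes among them 11 were above and 17 below 0, and of the 12 small subunit genes 4 were above and 8 below. Mrpl53 was the member left out by the filter. It had 20 reads over the 6 WT and 12 over the 5 Osmr-/- libraries, between 0 and 7 in a library, and shares exon sequence on its strand with another annotated gene. No difference in Mrpl53 was detectable at this depth.

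The members' log2 fold changes were then set beside the length of the protein they encode. The 8 members higher at an unadjusted p under 0.05 encode 87 to 252 residues (median 124.5) in their longest annotated coding transcript, and the 15 lower members 177 to 442 residues (median 306). Over the 76 tested members, Spearman's rank correlation between residues and log2 fold change was -0.66, with -0.60 over the 47 large and -0.72 over the 29 small subunit genes. Over the 5159 tested coding genes of the same range of length it was -0.12, and over all 10906 tested coding genes, most of them longer, it had the other sign, at 0.14. These points are genes that share the same 11 libraries and are not independent, so the values are a description. The rank correlation was -0.69 within numbers 1 to 3 and -0.48 within numbers 4 to 6, and between -0.62 and -0.68 when any single library was left out. It was -0.64 with the trends of all genes with total exon length and GC content removed, and protein length was not among those trends. GC content and total exon length of the members went less with the log2 fold change, at rank correlations of -0.37 and -0.09, beside -0.27 and 0.20 over 10906 coding genes.

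**Figure D4:**
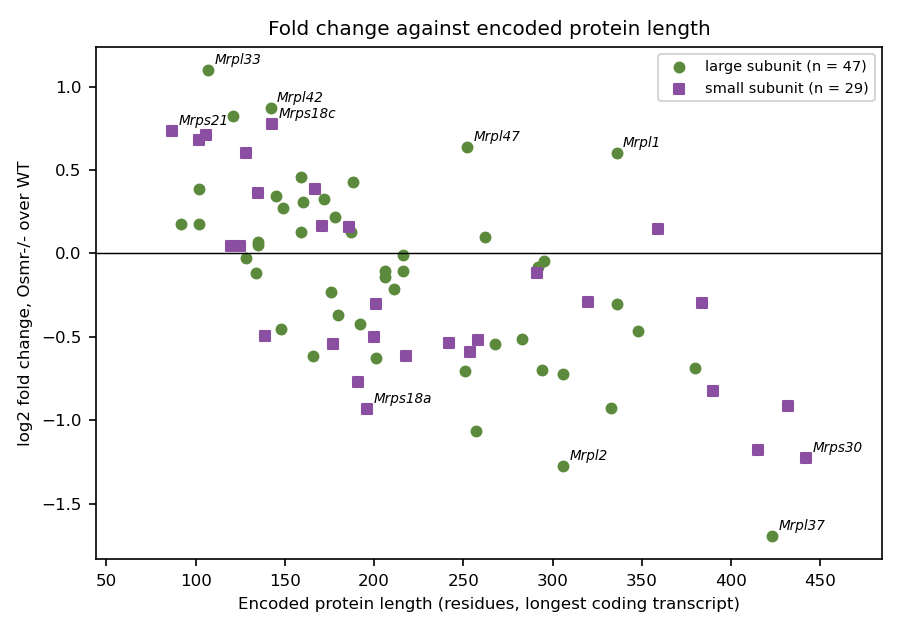
log2 fold change (Osmr-/- over WT) of the 76 tested members against the length of the encoded protein in residues, large subunit as circles and small subunit as squares. Most genes of short proteins lie above 0 and most genes of long proteins below, with Mrpl47 and Mrpl1 among the exceptions.

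Split at the middle of the members' lengths, a split chosen after the values were seen, the 38 shorter members (87 to 192 residues) had a median log2 fold change of 0.18 with 28 above 0. The 38 longer members (196 to 442 residues) had a median of -0.52 with 4 above 0: Mrpl1, Mrpl10, Mrpl47 and Mrps22. Coding genes of the same lengths went in the same direction by less, with 49.4% above 0 among the shorter and 31.5% among the longer. They were matched for length alone and not for level. In each library, the mean log2 level of the shorter minus that of the longer members, each gene centred on its mean, was between -0.584 and 0.092 in WT (mean -0.30 ± 0.307) and between 0.116 and 0.565 in Osmr-/- (mean 0.36 ± 0.166). The genotypes did not overlap, though WT 3 (0.092) and WT 6 (0.089) were close to Osmr-/- 5 (0.116). For all tested coding genes of these lengths the same quantity was -0.346 to 0.321 in WT and -0.176 to 0.395 in Osmr-/-, with overlap. Both quantities differed between libraries of a single genotype.

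**Figure D5:**
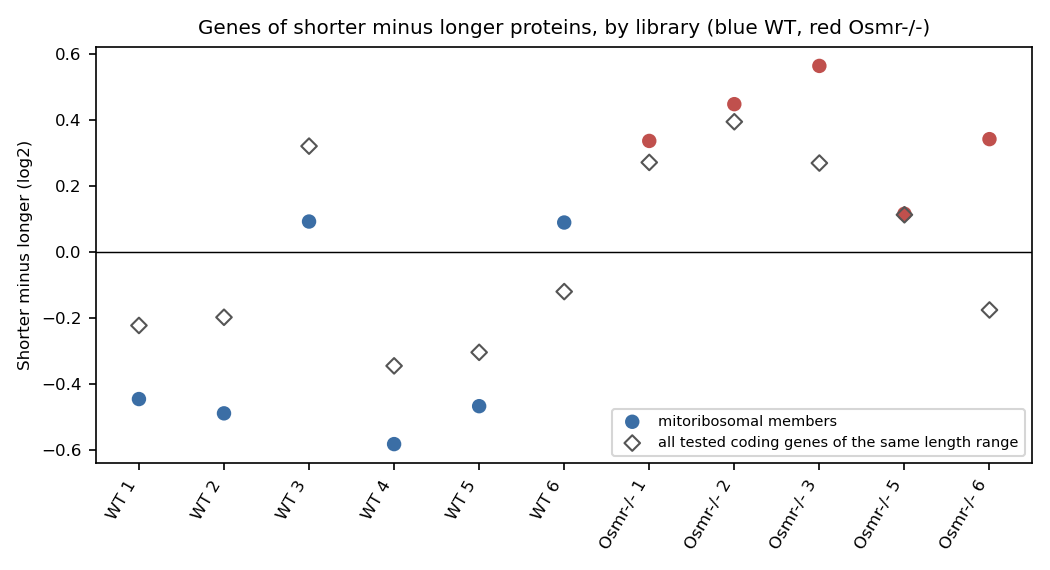
Mean centred log2 level of genes of shorter proteins minus that of genes of longer proteins in each library, for the members (filled, WT in blue and Osmr-/- in red) and for all tested coding genes of the same range of length (open diamonds). The members lie at -0.584 to 0.092 in WT and at 0.116 to 0.565 in Osmr-/-, and the diamonds overlap between genotypes.

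Levels of different genes were compared as normalised counts per kb of annotated exon, as a mean over the 11 libraries. The 76 tested members had a median of 563 per kb, between 38.3 and 4965, where the 12558 tested genes with a length had a median of 55.7. The large subunit genes had a median of 852 per kb and the small subunit genes 457. The 8 members higher at an unadjusted p under 0.05 by limma had a median of 2554 per kb and the 15 lower members 434. The other 53 tested members had a median of 575. Protein length and level were thus not separated in the values by length above. The 3 highest tested large subunit genes were Mrpl34 (4965), Mrpl42 (3617) and Mrpl41 (3461), and the 3 highest small subunit genes Mrps21 (4109.8), Mrps18c (3775) and Mrps28 (3601). The 3 lowest were Mrpl37 (89.4), Mrpl3 (126) and Mrpl19 (127) for the large and Mrps5 (38.3), Mrps27 (89.4) and Mrps35 (98.8) for the small subunit. A value per kb also depends on which exons are annotated. Across the 11 libraries the members' normalised counts had a median coefficient of variation of 31.5%, with 29.2% for the large and 36.4% for the small subunit genes, and 47.5% over all tested genes.

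Of the 77 members, 19 (24.7%) have a coding gene on the other strand that starts within 1000 bp upstream or overlaps their start by a short stretch. Of 10906 tested coding genes, 11.6% do. Pairs whose starts overlap further were not counted, as for Mrpl46 and Mrps11, which share exon sequence on opposite strands. Among these pairs are Mrps12 with Sars2, the mitochondrial seryl-tRNA synthetase (172 bp), Mrpl36 with Ndufs6, a complex I subunit (overlapping by 29 bp), and Mrps18c with the helicase gene Helq (29 bp). Mrpl2 starts 207 bp from Klc4 and Mrpl37 120 bp from Cyb5rl. Exon sequence of 32 members is shared with another annotated gene on either strand and that of 8 on the same strand, namely Mrpl3, Mrpl33, Mrpl51, Mrpl53, Mrps6, Mrps18c, Mrps24 and Mrps34. For these genes the reads could be split or set aside in the counting.

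Other genes of mitochondrial translation were given by lists, and no gene of the 6 lists was called by limma with genotype alone. With the sets of label numbers as a covariate limma called Rpusd3 (adjusted p = 0.0406), mt-Nd2 (0.0383) and mt-Nd1 (0.0481), and DESeq2 called Rpusd3 (adjusted p = 0.00119), Chchd1 (0.0438) and mt-Nd2 (0.0421). The 5 mitoribosomal proteins with other symbols had a median log2 fold change of -0.24, with 1 above and 4 below 0. Dap3, a GTP-binding protein of the small subunit, was at 1149.6 ± 348 in WT and 639 ± 185 in Osmr-/- (-0.85, adjusted p = 0.150). Chchd1, a small protein of the small subunit, was at 3517, 3983 and 6702 in WT and at 7227, 8417, 8077, 7174 and 6122 in Osmr-/-, with 4 of 5 Osmr-/- libraries above all WT (0.72, adjusted p = 0.130). The 26 tested assembly factors had a median of -0.22, with 9 above and 17 below 0. Rpusd3, a pseudouridine synthase family protein of mitochondria, was at 57.4, 126 and 269 in WT and at 2.27, 7.09, 30.9, 11.3 and 44.9 in Osmr-/-. Its values did not overlap (-3.23 ± 0.713, adjusted p = 0.0762). They rested on few reads in Osmr-/-, with 89 over these libraries and 2 in the lowest. Mterf4, which acts in large subunit assembly, was at 325 ± 54.4 and 143 ± 135 (-1.77, adjusted p = 0.149), -2.82 within numbers 1 to 3 and -0.24 within numbers 4 to 6.

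The 18 tested translation factors had a median of -0.08, with 7 above and 11 below 0. Taco1, which activates translation of a cytochrome oxidase subunit, was at 34.8 to 221 in WT and at 0, 0, 6.44, 53.5 and 4.88 in Osmr-/- (adjusted p = 0.114), and Osmr-/- 5 lay within the WT range. Slirp, which keeps mitochondrial messenger RNAs stable, was at 2209.7 ± 1234 in WT and 4145 ± 1299.7 in Osmr-/- (1.01, adjusted p = 0.152). The 20 tested tRNA synthetases and amidotransferase subunits had a median of -0.14 (9 above, 11 below 0), with Lars2 at -0.93 (adjusted p = 0.234) and Gatb at -1.14 (adjusted p = 0.281). The 15 tested genes of mitochondrial transcription and RNA maturation had a median of -0.07 (6 above, 9 below 0). In that list Hsd17b10, a subunit of mitochondrial RNase P, was at -0.52 and Grsf1, an RNA granule protein, at 0.45 (both adjusted p = 0.250).

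The protein genes of the mitochondrial genome, which this ribosome translates, formed the last list. All 12 tested genes of this list had a log2 fold change above 0, with a median of 0.96. They share the same 11 libraries, so their signs are not independent. The median of the mitoribosomal members was -0.11, near the -0.05 of all tested genes, and their share of reads was 1.395% ± 0.184 in WT and 1.46% ± 0.190 in Osmr-/-. None of the 12 was called by limma with genotype alone, while mt-Nd2 and mt-Nd1 were called with the covariate. The summed signal of the 13 genes found overlapped between genotypes, at 157070 to 798541 in WT and 350718 to 946610 in Osmr-/-. mt-Nd2, a complex I subunit, was at 5801, 9678 and 23165 in WT and at 28814, 31852, 40675, 15747 and 14266 in Osmr-/-, where libraries 1 to 3 were above all WT libraries (1.31 ± 0.367, adjusted p = 0.121). mt-Nd4 was at 19107 ± 7979 and 34954 ± 7829 (0.93 ± 0.285, adjusted p = 0.135). WT 3 held the highest WT value of mt-Nd2, as it did of Mrpl33, Mrpl42 and Mrpl52.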

How the data were processed

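RNA of sorted stem cells from 11 mice (6 WT, 5 Osmr-/-) was sequenced after SMART-Seq v4 cDNA synthesis, per the labels' protocols. Per the submitters' processing notes, Trimmomatic 0.36.6, FastQC 0.72, HISAT2 2.1.0, HTSeq 0.9.1 and the DESeq2 wrapper 2.11.40.6 were used with the mm10 build. The annotation and strand setting of the counting were not found in those notes. The deposited signal is a normalised count, which the authors made by dividing gene counts by a DESeq2 size factor per library. The authors also deposited log2 values (regularised logarithm and variance stabilised). The authors' deposited DESeq2 comparison, in a table without column names, holds log2 fold changes, a Wald score, p-values and adjusted p-values. Its sign is WT over Osmr-/- for all 615 genes it called, and it is turned here.

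Values were whole multiples of 1 step per library, so reads were recovered (100% of values were whole, with a largest distance of 1.4e-09 from a whole number). Totals were 9.50 to 22.1 M reads. limma 3.58.1 (eBayes with trend, R 4.3.3) was fitted to log2(normalised count + 1) with genotype alone, over the 13358 of 43279 genes with at least 10 normalised counts in at least 5 libraries. p-values are two-sided and adjusted by Benjamini-Hochberg over all tested genes, with a threshold of 0.05. Unless another tool is named, each adjusted p in the text is limma's. The script was tested on simulated data.

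Genes named are members past the threshold, the 5 of lowest p in each direction and subunit, members with stated roles, the 3 highest and 3 lowest per kb in each subunit, and the 2 of lowest p from each other list of mitochondrial translation genes. Members and lists were chosen with earlier results of these data known. The alternatives tried were edgeR 4.0.16, DESeq2 1.42.0, the deposited log2 values, scaling by TMM or quantiles, a filter at 50 or none, pseudocounts of 0.5 or 10, array weights, label number as a block, number sets as a covariate, length and GC trends removed, subunits by structure and each library left out. Positions and coding lengths are from GENCODE M21 (GRCm38, which is mm10), and promoters from RefSeq (GRCm38.p6).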

Additional observations from a re-analysis of the deposited data

Results flagged for a closer look

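Dixon's ratio of gap to range was read at the 95% critical value (0.710 for 5 and 0.625 for 6 libraries). Chance flags about 1 in 20 independent groups of normally distributed values. The groups here share the same libraries, so the flags are not set against that rate. Single libraries stood far from the rest of their genotype in 10 of 102 groups looked at. WT 3 was the high library of its group in 5 of these: it held 6052 normalised counts of Mrpl23 (the other WT libraries 3116 to 3849), 16722 of Mrpl42 (5829 to 9771), 3257 of Mrpl52 (844 to 1587), 3529 of Mrps28 (2276 to 2728) and 23165 of mt-Nd2 (5801 to 11465). Without WT 3, the members higher at an unadjusted p under 0.05 by limma numbered 15 in place of 8. The share of all tested genes in that fit is not given here.

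Osmr-/- 3 held 333 normalised counts of Mrps27, where the other Osmr-/- libraries held 40.2 to 124. Outside the members, WT 1 held 888 of Grsf1 (666 to 728 in the others), WT 4 held 220.4 of Mterf4 (314 to 364), WT 5 held 221 of Taco1 (34.8 to 78.4) and Osmr-/- 5 held 53.5 of Taco1 (0 to 6.44).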

How the results depend on the processing

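The count of members called higher was 1 with DESeq2 and 2 with a covariate for the sets of label numbers, in place of 0. That of members called lower was 2 with DESeq2 and 2 with the covariate, in place of 0. It was 1 with a pseudocount of 10, quantile scaling, regularised log values or variance stabilised values. These 4 settings called 42, 42, 51 and 49 of the 13358 tested genes lower, in that order, in place of 2. Leaving out single libraries gave 0 to 2 members called lower (2 without WT 6) and 0 called higher. Without WT 6, 92 of all tested genes were called lower and 30 higher. At an unadjusted p under 0.05 by limma, 16 members were higher and 5 lower with length and GC trends removed, beside 9.95% and 6.18% of the genes of that fit. With the covariate 24 members were lower, beside 12.4% of all tested genes. The fit with genotype alone gave 8 higher and 15 lower. Single libraries left out gave 4 to 15 higher and 8 to 19 lower, and the shares of all tested genes in those fits are not given here. The difference of medians, large minus small, kept its sign in every alternative run and was 0.13 to 0.32 over single libraries left out. The log2 fold changes of 4 of the 48 named genes changed sign: Mrpl19 (0.02) and Mrpl24 (0.20) with length and GC trends removed, Mrpl41 under quantile scaling (-0.022), and Mrps22 with edgeR (-0.0463) and DESeq2 (-0.0461). Over single libraries left out they were -0.18 to 0.0078 for Mrpl19, -0.23 to 0.025 for Mrpl24, -0.071 to 0.17 for Mrpl41 and -0.087 to 0.38 for Mrps22. The causes were not tested, beyond the fewer libraries or genes of a fit.

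Same-numbered libraries correlated at 0.020 to 0.099 in their deviations from the genotype means. The best-correlated Osmr-/- library was the same-numbered one for numbers 2 and 6 and another one for numbers 1, 3 and 5. These values do not settle whether label numbers pair the libraries, since no value for known pairs was at hand. With label number as a replicate block, 0 members were called in either direction, as were 0 of all 13358 tested genes. Mrpl41 was at -0.012 in that fit. With 6 and 5 libraries of 1000 cells, the tested members' log2 fold changes had standard errors of 0.2 to 0.557. Differences well above a standard error were also not called, such as Mrps30 at -1.23 ± 0.247 (limma adjusted p = 0.0650). The lack of calls therefore does not show that the genotypes are equal.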

Other observations

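The members lie on 17 chromosomes, and their log2 fold changes differed by chromosome. On chromosome 17, which carries Mrpl2, Mrpl28, Mrps18a and Mrps18b, 7 of 8 tested members were below 0, with a median of -0.60, where all 650 tested genes of that chromosome had a median of -0.06. On chromosome 11, 8 of 10 were below 0, with a median of -0.49 and -0.11 over all its tested genes. On chromosome 5, all 4 (among them Mrpl1, Mrpl33 and Mrps18c) were above 0, with a median of 0.69 and -0.11 over all its tested genes. The chromosomes were picked after the values were seen, so no test is given.

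The pseudogenes left out by symbol had few reads. Mrpl48-ps had 1339 reads over the WT and 654 over the Osmr-/- libraries, Mrpl23-ps1 had 367 and 337, Mrps36-ps1 had 104 and 77, and Mrps36-ps2 had 9 and 13.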
